A study of Mus musculus with 72 samples.

Results

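The comparison described here set 2 groups of morphine-treated mouse pups side by side at postnatal day 14 (PND14). Its members are the morphine libraries that the labels give for day 14 in the gene count matrix: 12 libraries of the 3-trimester group (3-Tri morphine) and 12 of the group treated only after birth (PND14 morphine), 24 of the 72 libraries of the series. It asks what exposure before birth adds to exposure after birth. The matching 24 saline libraries of day 14 were used as the background.

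Each library came from the right brain hemisphere of a single C57Bl/6NTac pup, and the design text of the series calls the tissue cortex. Pups of the PND14 morphine group received 10 mg/kg morphine under the skin 2 times a day from the evening of day 1 to the morning of day 14, and tissue was collected 6 h after the last injection. Pups of the 3-Tri morphine group received the same injections, and their dams in addition carried an osmotic minipump that delivered 10 mg/kg/day morphine from before mating, so the fetuses were exposed throughout gestation. Litters of pump-bearing dams were moved to a surrogate dam within hours of birth. PND14 saline and 3-Tri saline pups had saline by the same routes, so the pump and the surrogate dam are shared by both 3-Tri groups. The sources used here describe neither for the PND14 groups and do not say how those litters were reared. The labels give day 14 and the design text day 15. The labels do not name litters, but each sample name opens with a number, and each such number held libraries of 1 group: 4422 and 4423 were PND14 morphine (6 libraries each), 4433 and 4436 were 3-Tri morphine (7 and 5 libraries). The saline groups had other numbers, 4424 and 4425 for PND14 saline and 4431 and 4429 for 3-Tri saline. Group and cohort therefore cannot be told apart, and if pups under 1 number were littermates, p-values over pups are too small.

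Morphine acts on the mu, delta and kappa opioid receptors, which signal through inhibitory G proteins to lower cyclic AMP, open potassium channels and close calcium channels, and so damp neuronal firing. The second postnatal week in the mouse forebrain is a time when growing axons give way to mature ones, which is marked by falling levels of growth cone and microtubule proteins, and when oligodendrocytes leave the precursor stage and begin to wrap axons in myelin. Oligodendrocytes and their precursors also carry opioid receptors.

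Library depth differed between the groups. Total counts ran from 4407544 to 21404819 in PND14 morphine (median 15328214) and from 12506879 to 19938980 in 3-Tri morphine (median 16037759.5). The shallowest was PND14 morphine replicate 4, and replicates 1, 3 and 10 of the same group were also under 10000000, against 0 libraries of 3-Tri morphine. CT010467.1, annotated as an rRNA gene (chromosome 17, 39846353 to 39848827, mm10), took 0.151% to 3.82% of counts in PND14 morphine and 0.0740% to 0.210% in 3-Tri morphine, and it was over 0.3% in 6 PND14 morphine libraries (replicates 1, 3, 4, 5, 9 and 10). The sex labels held for 12 of 12 PND14 morphine libraries by their Xist and Ddx3y counts, whereas 8 of 12 3-Tri morphine libraries carried the genes of the other sex (4 of 12 in 3-Tri saline), and whether the drug and window labels of those libraries hold was not tested. Each group had 6 libraries with Xist and 6 with Ddx3y. Markers of other forebrain regions were present beside those of cortex: all 22 cortex and hippocampus, 20 striatum, 14 thalamus and 12 olfactory bulb genes listed passed the count filter, against 10 of 22 hindbrain and cerebellum genes.

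A small set of genes separated the morphine groups, mostly by modest amounts. Among the called genes, Gap43, Stmn2, Nrep and Tubb5, which have roles in axon growth or the cytoskeleton, and the Y-box genes Ybx3 and Ybx1 fell in 3-Tri morphine relative to PND14 morphine, while Serinc5, the myelination-associated Gsn, Gpr37 and Tns3, and Abat of GABA breakdown rose. Of 19007 genes tested with edgeR's quasi-likelihood test and Benjamini-Hochberg adjustment, 28 were higher in 3-Tri (0.147%) and 51 lower (0.268%) at an adjusted p under 0.05; 61 of the 79 are protein coding. At an unadjusted p under 0.05, 1374 genes were higher (7.23%) and 1550 lower (8.15%), and the median log2 fold change of all genes was -0.0019. The log2 fold change (3-Tri minus PND14) was below 1 in size for 68 of the 79, with a smallest called size of 0.12.

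The count of called genes depended on which libraries entered. Without PND14 morphine replicate 4, 21 genes were higher (0.11%) and 50 lower (0.262%) of 19098 tested, and 60 of the 79 were called again. Of the genes named here, Abat, Rpsa, Col6a1, Unc80, Plat, Prima1, B3galt5 and Prag1 were then not called (adjusted p between 0.0554 and 0.0595). Without the 6 libraries over 0.3% rRNA gene counts 1 gene was higher and 3 lower, without the 4 libraries under 10000000 counts 3 and 9, and without the 8 libraries against their sex label 0 and 0 (1157 genes at an unadjusted p under 0.05, with 4 3-Tri libraries left). Leaving out the libraries of number 4433 gave 0 and 0, of 4436 1 and 1, of 4422 17 and 16, and of 4423 137 and 426. These settings also remove samples, and how much of each loss comes from that was not tested.

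Ybx3 (chromosome 6, 131364855 to 131388476, minus strand, mm10), which encodes a cold-shock domain protein that binds DNA and RNA, gave the smallest p of all genes. Normalized CPM (counts of a gene per 1000000 counts of the library, scaled by the trimmed mean of M values, TMM) were 58.3, 66.2 and 72.2 in PND14 morphine (lowest, median, highest of 12) and 50.0, 55.2 and 59.0 in 3-Tri morphine. The groups barely overlapped, with 11 of 12 3-Tri pups below every PND14 pup. Genes were named mainly by their p in these same libraries. Counts of separated pups, here and below, are therefore description and not separate support. The share of all genes tested with such a separation is not given here. The fold change was -0.28 on the log2 scale (SE 0.034, adjusted p = 8.47e-05 by edgeR's quasi-likelihood test), so Ybx3 fell by 17.7%. It was among the 3 lower genes without the high-rRNA libraries (-0.28, adjusted p = 0.0032 by the same test), and it stayed called in 17 of 20 other settings. The call was lost without number 4433 (-0.29, adjusted p = 0.0589), without the libraries against their sex label (-0.26, adjusted p = 0.815) and with counts summed over name number (-0.28, adjusted p = 0.0582). With saline the same difference was -0.11 (SE 0.036, unadjusted p = 0.0032 by the same test over 48 libraries) and was not called after adjustment. The Ybx3 change with morphine minus that with saline was -0.17 (SE 0.051, adjusted p = 0.190 by that test), also not called. Its paralogue Ybx1, an mRNA-binding Y-box protein, had 382, 431 and 532 CPM in PND14 morphine and 343, 374 and 409 in 3-Tri morphine, with 8 of 12 3-Tri pups below every PND14 pup (log2 fold change -0.23, adjusted p = 0.0178). Ybx1 was not called without the high-rRNA libraries (-0.14, adjusted p = 0.255).

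Sox12 (chromosome 2, 152393611 to 152398063, minus strand), a SoxC transcription factor of developing neurons, also fell. Its CPM were 57.0, 63.7 and 78.9 in PND14 morphine and 47.8, 54.6 and 58.1 in 3-Tri morphine (lowest, median, highest), and 10 of 12 3-Tri pups lay below every PND14 pup. The log2 fold change was -0.25 (SE 0.043, adjusted p = 0.0130). Serinc5 (chromosome 13, 92611091 to 92711947, plus strand), a membrane protein of the serine incorporator family, was the called gene with the smallest p among those that rose: 70.8, 79.1 and 89.1 CPM in PND14 morphine against 86.9, 90.1 and 96.4 in 3-Tri morphine. Here 9 of 12 3-Tri pups lay above every PND14 pup, and the log2 fold change was 0.18 (SE 0.030, adjusted p = 0.0126).

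The start-site windows of these genes are shown because Ybx3 and Ybx1 are named for the Y-box, a promoter element with the core letters CCAAT. Each window runs from 250 bases before to 50 after the annotated start (RefSeq, GRCm38.p6), 5′ to 3′ on the gene's strand, with CCAAT or its reverse complement ATTGG in capitals. They lie at chr6:131388401-131388700 (Ybx3), chr2:152397997-152398296 (Sox12) and chr13:92610888-92611187 (Serinc5).
Ybx3: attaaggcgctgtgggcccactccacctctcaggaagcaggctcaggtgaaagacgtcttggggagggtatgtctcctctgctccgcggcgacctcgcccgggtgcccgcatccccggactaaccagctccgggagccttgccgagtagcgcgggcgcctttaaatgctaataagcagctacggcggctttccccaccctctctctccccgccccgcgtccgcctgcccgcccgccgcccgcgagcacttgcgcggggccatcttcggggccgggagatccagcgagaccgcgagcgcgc
Sox12: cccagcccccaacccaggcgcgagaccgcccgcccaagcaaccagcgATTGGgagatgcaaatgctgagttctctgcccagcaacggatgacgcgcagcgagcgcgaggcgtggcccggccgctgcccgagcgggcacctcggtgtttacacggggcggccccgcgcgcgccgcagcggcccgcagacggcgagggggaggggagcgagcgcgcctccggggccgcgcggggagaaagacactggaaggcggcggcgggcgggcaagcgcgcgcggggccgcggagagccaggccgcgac
Serinc5: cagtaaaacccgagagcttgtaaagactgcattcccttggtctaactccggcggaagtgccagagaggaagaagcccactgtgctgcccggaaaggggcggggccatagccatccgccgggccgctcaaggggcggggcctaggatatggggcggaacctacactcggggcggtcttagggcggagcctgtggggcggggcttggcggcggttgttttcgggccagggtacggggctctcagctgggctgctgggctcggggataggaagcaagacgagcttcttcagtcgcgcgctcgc
Sox12 held 1 match and the other windows 0. Among genes with a RefSeq window, 13 of 34 that fell (38.2%) and 2 of 16 that rose (12.5%) held CCAAT on either strand, against 42.4% of the genes tested and 37.4% of all windows. The match is a description of letters and carries no test.

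**Figure D1:**
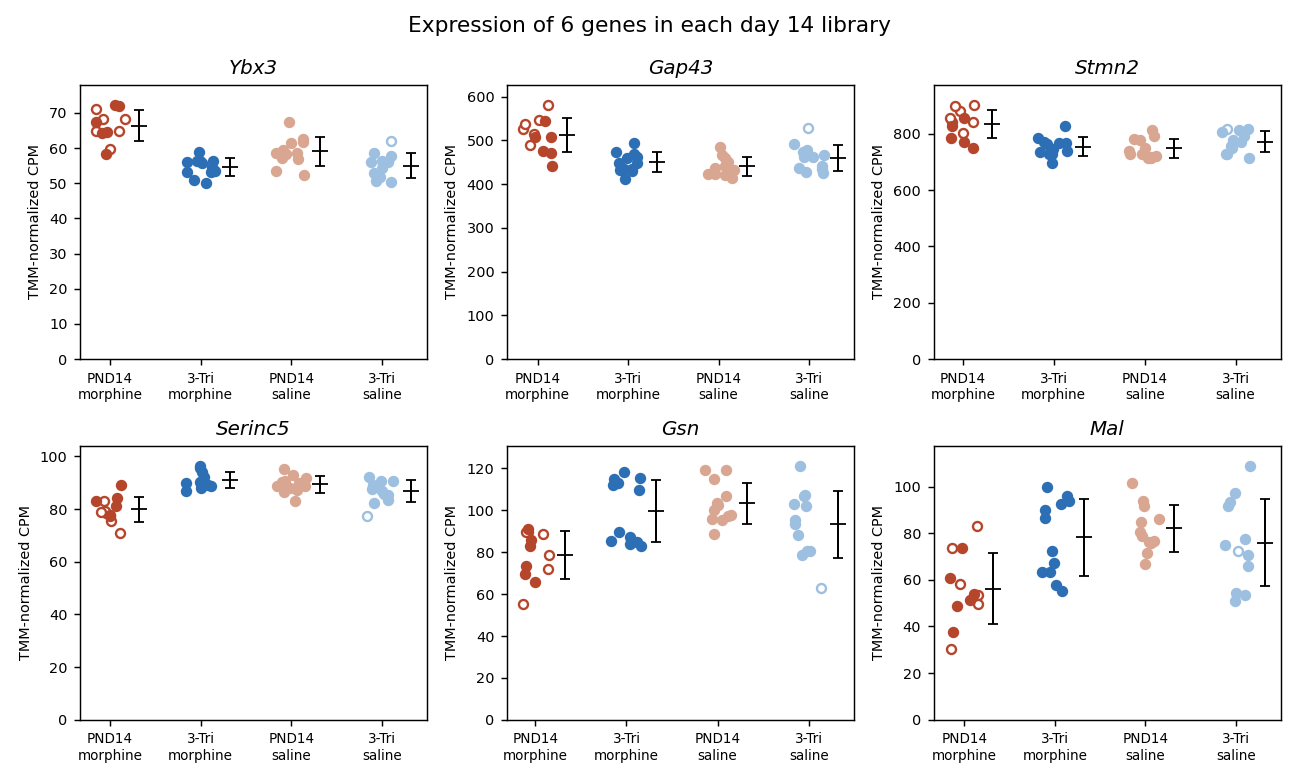
TMM-normalized CPM (linear axis from 0) of Ybx3, Gap43, Stmn2, Serinc5, Gsn and Mal in each of the 48 day 14 libraries, by group, with the mean and SD of 12 pups beside the points; open circles are libraries with over 0.3% of counts from the rRNA gene. In Gap43, Stmn2, Serinc5, Gsn and Mal the PND14 morphine mean lies apart from the means of the other groups, whereas Ybx3 is lowest in both 3-Tri groups; Mal did not pass the test (adjusted p = 0.0737).

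The gene lists, the immature neuron and myelin lists among them, were chosen with earlier results of these data known. Their counts are therefore description and not an independent test. Of the 25 genes listed as markers of immature neurons, 4 were called, all lower in 3-Tri morphine (Nrep, Gap43, Stmn2 and Stmn1), and 16 were lower and 0 higher at an unadjusted p under 0.05. The list's median log2 fold change was -0.15, against -0.0019 over all genes, of which 8.15% were lower at that threshold and 0.268% called lower. The summed CPM of the list (counts of its genes over the library's total counts, with no TMM scaling) ran from 6263 to 7980 in PND14 morphine (median 7139) and from 5978 to 6839 in 3-Tri morphine (median 6371), and the medians of PND14 saline and 3-Tri saline were 6300 and 6500. PND14 morphine was thus the high group of the 4. In bulk tissue, fewer cells of a type and less RNA per cell cannot be told apart.

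Gap43 (chromosome 16, 42248442 to 42340651, minus strand), a membrane protein of growth cones, had 441, 512 and 580 CPM in PND14 morphine and 411, 449 and 494 in 3-Tri morphine, with all 12 3-Tri pups below the PND14 median and 5 below every PND14 pup. Gap43 fell by 12.1% (log2 fold change -0.19, SE 0.037, adjusted p = 0.0173). The saline means were 440 (PND14) and 460 (3-Tri), close to the 450 ± 22.96 of 3-Tri morphine and under the 512 ± 38.6 of PND14 morphine (SD, n = 12). Stmn2, a neuronal stathmin that regulates microtubules in axons, had 749, 842 and 901 CPM in PND14 morphine and 696, 753 and 827 in 3-Tri morphine (log2 fold change -0.15, adjusted p = 0.0265), with saline means of 748 and 772. Nrep, a protein of neurite growth and nerve repair, had 327, 414 and 491 CPM against 323, 345 and 380 (-0.24, adjusted p = 0.0171). For Stmn2 6 of 12 3-Tri pups lay below every PND14 pup and for Nrep 1 did, although all 12 lay under the PND14 median for both. Stmn1, the broadly expressed stathmin, was -0.15 (adjusted p = 0.0463).

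Other called genes were lower as well. Tuba1c, an alpha-tubulin, was -0.48 (adjusted p = 0.0230), the paralemmin Palm3 -0.43, and the myosin light chain Myl6b -0.30. Among called genes chosen after their values were seen, the tubulins Tubb5 and Tuba1a were -0.15 and -0.21, the adhesion molecule Ncam1 -0.22, and Evl, an actin regulator, -0.20. Near-identical tubulin copies can share reads, Tuba1a overlaps the annotated Gm49450 on its own strand, and the exons of Ncam1, Evl and Palm3 overlap another gene on the opposite strand. The sources used here do not give the strand setting of the counting.

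For the immature neuron list the direction held in each setting run, with a median between -0.17 and -0.077 over 20 settings. Without the 6 high-rRNA libraries 15 genes were lower at an unadjusted p under 0.05 with a median of -0.10, and without the libraries against their sex label 9 were. With the log2 CPM of the rRNA gene as a covariate 9 were lower, with the median nearest to 0 of these settings (-0.077). Gap43, Stmn2 and Nrep were not called without either set of libraries (Gap43 -0.13, adjusted p = 0.255, and -0.16, adjusted p = 0.815).

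**Figure D2:**
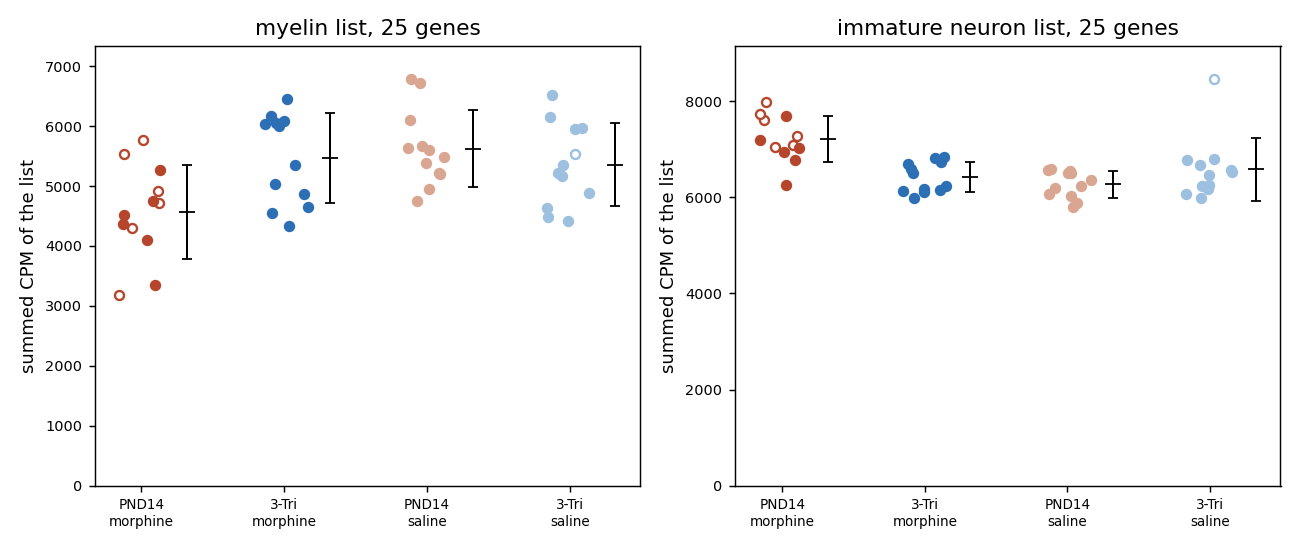
Summed CPM (over total counts, with no TMM scaling) of the 25 myelin genes and of the 25 immature neuron genes in each day 14 library, by group, on linear axes from 0, with the mean and SD of 12 pups; open circles are libraries with over 0.3% of counts from the rRNA gene. PND14 morphine is the lowest group for myelin (median 4620) and the highest for immature neurons (median 7139); the high 3-Tri saline point on the right (8471) is its shallow replicate 1.

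Myelin genes went the other way. Of 25 listed, 24 had a positive log2 fold change, 18 were higher and 0 lower at an unadjusted p under 0.05, and the list's median was 0.26, yet 1 gene (Gsn) was called after adjustment over all genes. Among all genes tested, 7.23% were higher at an unadjusted p under 0.05 and 0.147% were called higher. The summed CPM of the list was 3183 to 5765 in PND14 morphine (median 4620) and 4338 to 6445 in 3-Tri morphine (median 5672), and the saline medians were 5547 (PND14) and 5281 (3-Tri). By name number the mean sum was 4926 for 4422 and 4204 for 4423, both under the 5561 of 4433 and the 5329 of 4436. The libraries overlapped widely within that order.

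Gsn (chromosome 2, 35256380 to 35307892, plus strand) encodes gelsolin, an actin-severing protein abundant in oligodendrocytes. Its CPM were 55.3, 80.8 and 91.2 in PND14 morphine and 82.8, 99.5 and 118 in 3-Tri morphine, with 12 of 12 3-Tri pups above the PND14 median and 6 above every PND14 pup. Gsn rose by 27.4% (log2 fold change 0.35, SE 0.079, adjusted p = 0.0420). Its saline means were 103 and 93.5, so PND14 morphine (78.5 ± 11.4, SD, n = 12) was the low group. Mal, a proteolipid of compact myelin, had 30.5, 53.7 and 82.9 CPM against 55.3, 79.5 and 99.7 (0.48, SE 0.127), Myrf, the transcription factor of myelin genes, 33.7, 48.4 and 54.4 against 47.8, 56.3 and 65.8 (0.26), and Tspan2, a tetraspanin of oligodendrocytes, 103, 137 and 160 against 132, 164 and 192 (0.26). These 3 did not pass (adjusted p = 0.0737, 0.0725 and 0.0791).

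Of 18 listed genes of oligodendrocyte precursors and early stages, 0 were called, 13 had a positive log2 fold change, 4 were higher and 2 lower at an unadjusted p under 0.05, and the median was 0.033. The shares over all genes tested at that threshold were 7.23% higher and 8.15% lower. Their summed CPM had a median of 1273 in PND14 morphine, 1312 in 3-Tri morphine, 1350 in PND14 saline and 1329 in 3-Tri saline. The list was not tested against the myelin list. Enpp6 and Bcas1, which mark newly formed oligodendrocytes, had log2 fold changes of 0.29 and 0.21 (adjusted p = 0.0550 and 0.0779), Tnr, an extracellular matrix glycoprotein, 0.20 (adjusted p = 0.122), and Tcf7l2, a transcription factor of the same stage that the thalamus also makes, -0.29 (adjusted p = 0.0978). Outside the lists, Gpr37, an orphan receptor enriched in oligodendrocytes, rose from a median of 26.8 to 32.6 CPM (0.23, adjusted p = 0.0413), and Tns3, a focal adhesion protein expressed as oligodendrocytes mature, from 103 to 116 (0.18, adjusted p = 0.0301). For each of them 7 of 12 3-Tri pups lay above every PND14 pup.

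The median of the myelin list was positive in each of 20 settings, between 0.13 and 0.35. Without the 6 high-rRNA libraries 18 of its genes were higher at an unadjusted p under 0.05 (median 0.29), and without the libraries against their sex label 4 genes were (median 0.17). The size depended on the PND14 number kept: without number 4423 4 genes were higher (median 0.13), and without 4422 19 were (median 0.35). Without 4433 and 4436 12 and 17 were. Gsn was called in 9 of 20 settings and not without the high-rRNA libraries (0.35, adjusted p = 0.164).

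**Figure D3:**
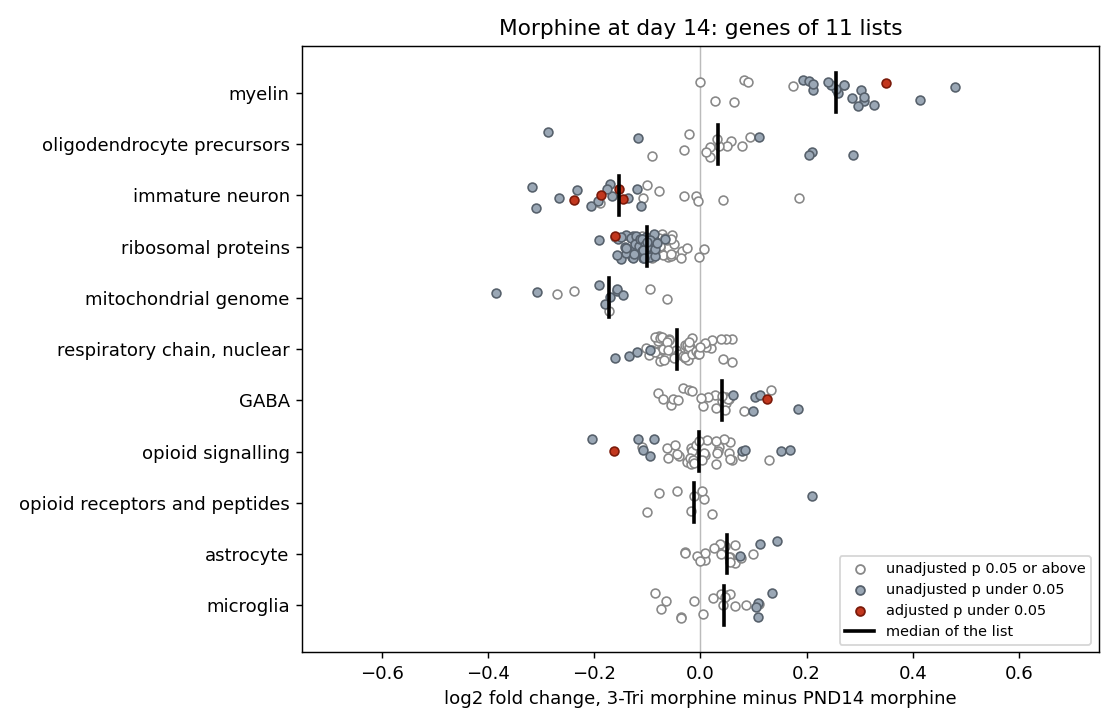
Log2 fold change of 3-Tri morphine minus PND14 morphine for each tested gene of 11 lists, with red points for adjusted p under 0.05, grey-blue for unadjusted p under 0.05 alone, white for neither, and a bar at each list's median. Myelin genes sit to the right (median 0.26), immature neuron, ribosomal protein and mitochondrial genes to the left (-0.15, -0.10 and -0.17), and opioid lists around 0; genes beyond the axis range of the plot, Gphn among them, are not drawn.

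The remaining named genes that rose have varied roles. Zkscan16, a zinc finger protein, had 20.6, 24.9 and 31.6 CPM in PND14 morphine and 29.4, 32.9 and 39.6 in 3-Tri morphine (log2 fold change 0.32, adjusted p = 0.0171). Pitpnm3, a phosphatidylinositol transfer protein, rose from a median of 87.2 to 96.8 CPM (0.20) and Unc80, an auxiliary subunit of a sodium leak channel that sets resting excitability, from 171 to 206 (0.22). Plat, tissue plasminogen activator, was 0.19, Rin1, a Ras effector of neurons, 0.25, the deubiquitinase Otud7b 0.24, the hexokinase-related Hkdc1 0.35, the retrotransposon-derived Rtl5 0.20, and Prima1, which anchors acetylcholinesterase in membranes, 0.42. Lyrm9, B3galt5 and Prag1 were 0.14, 0.17 and 0.21. The 12 3-Tri pups all lay above the PND14 median for Zkscan16, Pitpnm3, Unc80, Plat, Rin1, Hkdc1, Rtl5 and Prag1, and 10 to 11 did for Otud7b, Prima1, Lyrm9 and B3galt5.

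Among the other named genes that fell, Impdh1, an enzyme of guanine nucleotide synthesis, went from a median of 99.7 to 87.9 CPM (-0.22, adjusted p = 0.0171) with 9 of 12 3-Tri pups below every PND14 pup. Usp43, a deubiquitinase, was -0.34, Arxes1 -0.20 and 9330159F19Rik -0.18. Ftl1-ps1 was -0.63 and Gm11361 -0.91; the name of the former marks it as a copy of the ferritin light chain gene, and its value is uncertain because such copies can share reads.

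The opioid genes were described by 2 lists. Of 9 opioid receptor and peptide genes tested (Npff and Npffr2 did not pass the count filter) 0 were called and 1 was higher at an unadjusted p under 0.05, with a median of -0.013. The share of all genes tested that were higher at that threshold was 7.23%. Oprm1, the mu receptor through which morphine mainly acts (given for its role, outside the rule for named genes), had 56.8, 69.6 and 73.5 CPM in PND14 morphine and 62.7, 67.5 and 79.0 in 3-Tri morphine (log2 fold change 0.021, SE 0.040, adjusted p = 0.861), and the groups overlapped almost fully. Oprd1, the delta receptor, had 9.48, 11.4 and 14.0 CPM against 11.7, 13.5 and 16.0 (0.21, SE 0.060, adjusted p = 0.0917), with all 12 3-Tri pups above the PND14 median. The precursor peptides Penk and Pnoc were -0.044 and -0.10 (adjusted p = 0.738 and 0.438), and Pomc -0.079 (adjusted p = 0.860).

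Of 41 genes of the signalling machinery downstream of the receptors, 1 was called, 4 were higher and 6 lower at an unadjusted p under 0.05, and the median was -0.0020. Over all genes tested 7.23% were higher and 8.15% lower at that threshold, and 0.268% were called lower. The list's shares lay above these over the 24 libraries, but its counts were small and changed with the setting. They were 1 higher and 4 lower without the 6 high-rRNA libraries, and 0 and 1 without the libraries against their sex label. With the log2 CPM of the rRNA gene as a covariate they were 1 and 2. The called gene was Gnao1, the alpha subunit of the abundant neuronal G protein Go, with 852, 925 and 1150 CPM in PND14 morphine and 819, 846 and 882 in 3-Tri morphine. In 8 of 12 3-Tri pups it lay below every PND14 pup (log2 fold change -0.16, SE 0.034, adjusted p = 0.0233), and it was -0.092 (adjusted p = 0.157) without the high-rRNA libraries. Its exons overlap another gene on the opposite strand. Gnb1, a G protein beta subunit, was -0.20 (adjusted p = 0.1001), Prkar2b, a regulatory subunit of protein kinase A, -0.094 (adjusted p = 0.0917), and Rgs14, a regulator of G protein signalling, 0.15 (adjusted p = 0.159).

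In the list of 30 GABA genes 1 was called and 6 were higher and 1 lower at an unadjusted p under 0.05 (median 0.041). The shares over all genes tested were 7.23% higher and 8.15% lower at that threshold, and 0.147% called higher. Abat, the transaminase that breaks down GABA, rose from 333, 357 and 385 CPM in PND14 morphine to 358, 395 and 407 in 3-Tri morphine (0.13, SE 0.029, adjusted p = 0.0452), with 8 of 12 3-Tri pups above every PND14 pup. Abat was called in 5 of 20 other settings, and not without PND14 morphine replicate 4 (0.12, adjusted p = 0.0554). Gabrb2, a subunit of the GABA-A receptor, and Gad1, which makes GABA, were 0.18 and 0.10 (adjusted p = 0.0854 and 0.148). Gphn, which encodes the synaptic scaffold gephyrin, was -1.34 (adjusted p = 0.0556), but its PND14 morphine values ran from 140 over a median of 176 to 1649 CPM, and its high values lay in the libraries described next.

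The most negative fold changes belonged to genes that were high in the same few PND14 morphine libraries. CT010467.1, the rRNA gene, had 1467, 2843 and 42865 CPM in PND14 morphine and 728, 1030 and 2076 in 3-Tri morphine (-2.70, SE 0.476, adjusted p = 0.0130). Lars2, the mitochondrial leucyl-tRNA synthetase, had 146, 248 and 5046 CPM against 97.3, 124 and 199 (-2.58, adjusted p = 0.0171), and Cdk8, a kinase of the Mediator complex, 213, 397 and 8573 against 159, 195 and 324 (-2.62, adjusted p = 0.0173). In all 3 genes PND14 morphine replicates 4, 3 and 5 were highest, in that order, followed by replicates 9 and 10.

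Jarid2, a Polycomb cofactor, was -2.13, Filip1l -2.10, Cmss1 -1.94 and Zc3h7a -1.72, all called. Filip1l lies within the span of Cmss1 on the opposite strand, although their annotated exons do not overlap. Whether Filip1l and Cmss1 counts come from shared reads was not tested. Gm19951 (-2.99), D130009I18Rik (-2.78), Gm24187 (-2.39) and Gm23935 (-2.04), noncoding or predicted genes chosen after their values were seen, were called as well, and Gm23935 lies within Zc3h7a. Without PND14 morphine replicate 4 the fold change of Lars2 was -1.67 and of Cdk8 -1.64 (adjusted p = 0.0196 and 0.0212). Without the 6 high-rRNA libraries they were -0.35 and -0.28 (adjusted p = 0.319 and 0.446), and CT010467.1 itself -0.55 (adjusted p = 0.287). The annotated transcripts of CT010467.1, Lars2, Filip1l, Cmss1 and Gm19951 shared 0 stretches of 31 bases with another gene of this block. Of 9143 such stretches Zc3h7a shared 8, of 9816 Cdk8 shared 4, of 10005 Jarid2 shared 6 and of 7405 D130009I18Rik shared 9, while Gm23935 and Gm24187 shared 16 of 27 with each other. CT010467.1 overlaps AY036118 on its own strand and Gm42418 on the opposite strand, which were not compared. Only exact stretches of annotated transcripts were compared, so the counts cannot say whether rRNA reads were assigned to these genes.

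**Figure D4:**
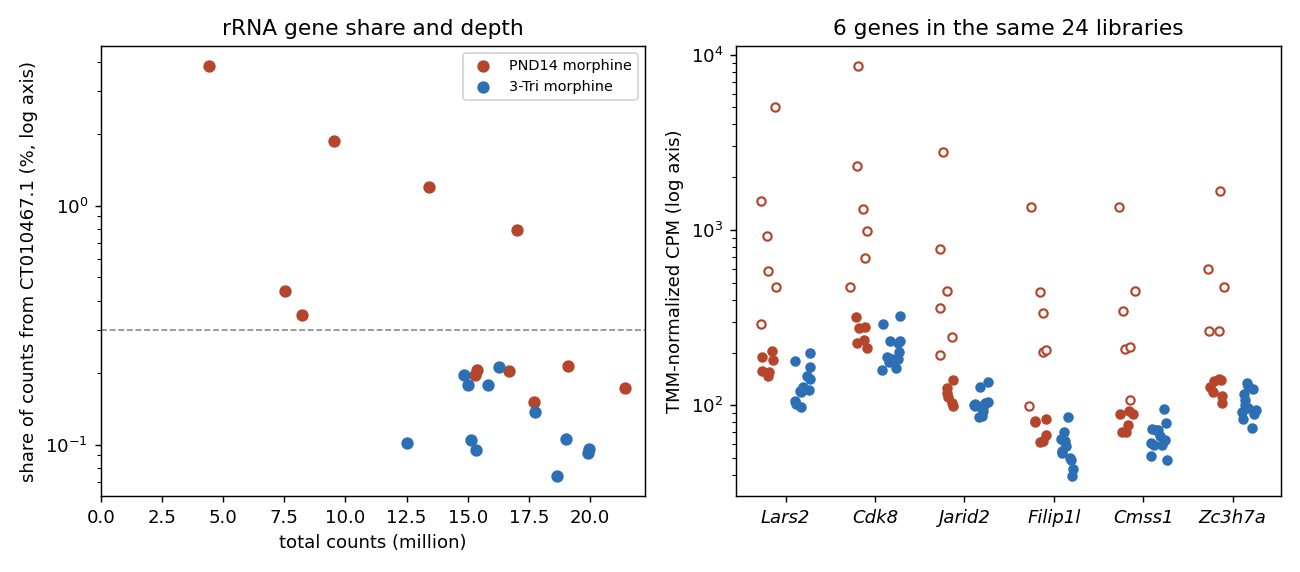
Left, share of counts from the rRNA gene CT010467.1 (%, log axis) against total counts in the 24 morphine libraries, with a dashed line at 0.3%; right, TMM-normalized CPM (log axis) of Lars2, Cdk8, Jarid2, Filip1l, Cmss1 and Zc3h7a in the same libraries, open circles being those above the line. The 6 libraries above the line are all PND14 morphine, include the 4 under 10000000 counts, and hold the highest values of each gene.

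The medians of ribosomal protein and mitochondrial genes also depended on those libraries. For comparison, 8.15% of all genes tested were lower at an unadjusted p under 0.05, and 0.268% were called lower. Of 79 ribosomal protein genes, 47 were lower and 0 higher at an unadjusted p under 0.05 with a median of -0.10, and 1 was called, Rpsa (-0.16, adjusted p = 0.0461), a component of the small subunit with 365, 419 and 482 CPM in PND14 morphine and 358, 369 and 388 in 3-Tri morphine. Rpsa was called in 5 of 20 other settings, and not without PND14 morphine replicate 4 (-0.15, adjusted p = 0.0595). Rpl10a, Rps20 and Rplp0 were -0.16, -0.15 and -0.11 (adjusted p = 0.0728, 0.102 and 0.117). Without the high-rRNA libraries 2 of the 79 were lower at an unadjusted p under 0.05, with a median of -0.017. The 13 protein genes of the mitochondrial genome had a median of -0.17 (0 called, 8 lower at an unadjusted p under 0.05, mt-Atp6 -0.39 and mt-Nd1 -0.19) and of 0.030 without those libraries. Nuclear genes of the respiratory chain had a median of -0.044 (0 of 56 called) and of 0.016 without them. In the same 18 libraries the myelin and immature neuron lists had medians of 0.29 and -0.10. With the log2 CPM of the rRNA gene as a covariate over all 24 libraries, 0 of the 79 ribosomal protein genes were lower at an unadjusted p under 0.05 (median 0.0075), and the mitochondrial and nuclear respiratory medians were 0.051 and 0.029. In that fit the myelin and immature neuron medians were 0.27 and -0.077, with 17 myelin genes higher and 9 immature neuron genes lower at an unadjusted p under 0.05. The rRNA share itself differs between the groups, so that its part and that of the exposure cannot be told apart.

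The same window contrast with saline gave 0 called genes of 19673 (0%), with 662 at an unadjusted p under 0.05, and DESeq2 gave 1. Across these genes the fold changes with morphine and with saline had a Pearson r of -0.0052, a value across genes, which are not independent replicates. Among the 79 called with morphine the median size was 0.22 with morphine and 0.038 with saline, and 56 had the opposite sign with saline. This description uses the morphine values that called them. In saline pups the myelin list had a median of -0.10 and the immature neuron list of 0.069.

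The difference itself was tested as the morphine change minus the saline change over 48 libraries: 3 of 19673 genes were called (0.0152%), 1 positive and 2 negative, and 981 (4.99%) and 1008 (5.12%) had an unadjusted p under 0.05. They were Serinc5 (0.22, SE 0.039, adjusted p = 0.0122), CT010467.1 (-2.82, SE 0.535, adjusted p = 0.0276) and Gap43 (-0.25, SE 0.050, adjusted p = 0.0450). Serinc5 means were 79.9 ± 4.68 CPM in PND14 morphine, 91.0 ± 3.07 in 3-Tri morphine, 89.4 ± 3.16 in PND14 saline and 86.8 ± 4.16 in 3-Tri saline (SD, n = 12). Here too PND14 morphine was the group apart. Of the 25 myelin genes 18 had a positive difference at an unadjusted p under 0.05 (median 0.35) and 0 a negative one, and of the 25 immature neuron genes 16 had a negative one and 0 a positive one (median -0.21), with 0 and 1 (Gap43) called. Of the 18 oligodendrocyte precursor genes 5 had a positive difference at that threshold and 0 a negative one (median 0.053). Without PND14 morphine replicate 4 and 3-Tri saline replicate 1 Serinc5 was called (0.20, adjusted p = 0.0199) and Gap43 was not (-0.21, adjusted p = 0.0585). Without the libraries over 0.3% rRNA gene counts neither was (Serinc5 0.18, adjusted p = 0.102).

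**Figure D5:**
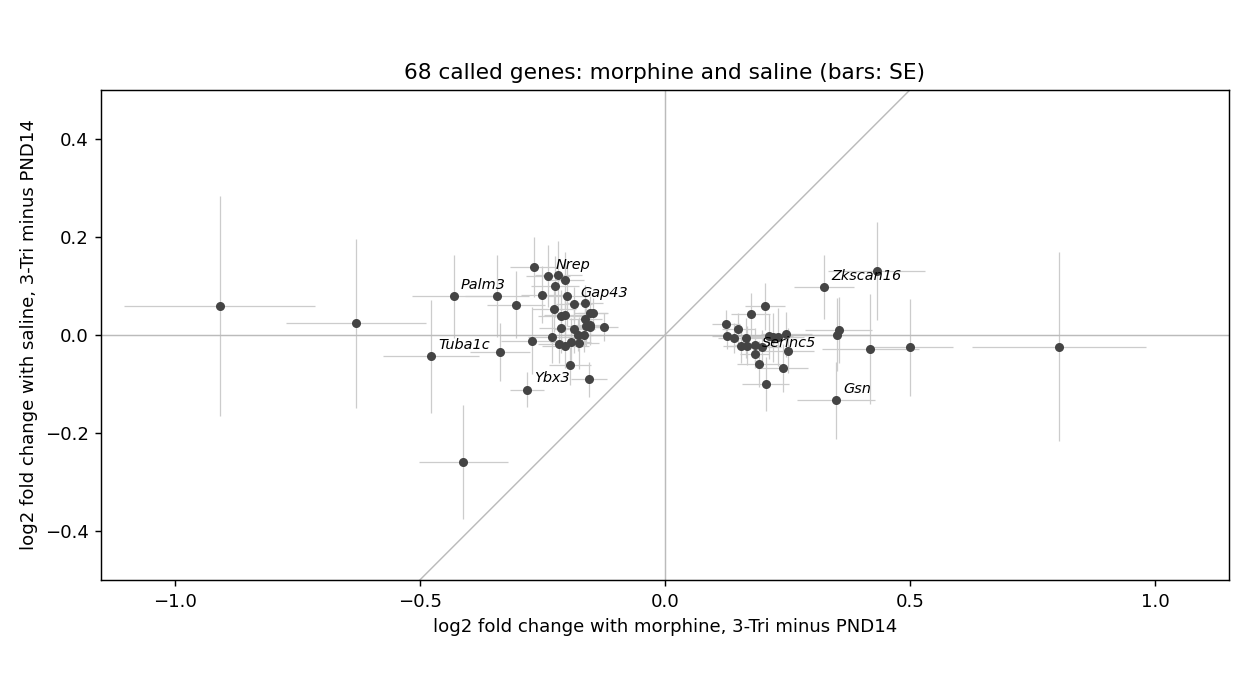
Log2 fold change of 3-Tri minus PND14 with saline (vertical) against the same with morphine (horizontal) for the 68 called genes under 1 in size, with SE bars and a diagonal of equality. Points were picked for their horizontal position, and vertically most lie near 0, with a median size of 0.038 over the 79 called genes; Ybx3 lies below 0 on both axes.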

How the data were processed

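RNA was sequenced from 72 single-pup samples, 24 of which enter the morphine comparison. The authors deposited raw gene counts as a whole-series matrix; per the labels and methods, reads were trimmed with Trim Galore 0.6.6, aligned to mm10 with HISAT2 2.2.1 and counted on GENCODE annotation with featureCounts 2.0.1. The sources used here do not give the strand setting of the counting. Deposited tables of the authors' own DESeq2 comparisons, which hold fold changes and p-values, were not used. Gene symbols came from a GENCODE annotation for 55141 of 55401 identifiers, and 0 columns were unmatched.

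Counts were filtered with filterByExpr (minimum count 10), TMM-scaled and tested with edgeR 4.0.16 (glmQLFit and glmQLFTest, R 4.3.3) over the 24 libraries, and over 48 libraries for the saline contrast and the difference of the morphine and saline changes. Normalized CPM of genes are on the TMM scale, list sums are CPM over total counts, and log2 fold changes are those of edgeR's test. The log2 CPM used as a covariate or in the GC and length correction took a prior count of 2. Adjusted p-values are Benjamini-Hochberg over all genes tested, called under 0.05. Alternatives were DESeq2 1.42.0, limma 3.58.1, other scalings and filters, sex terms, GC and length correction, a replicate block and omission of libraries; 4 were chosen after the data were seen. Genes were named by rule: called protein-coding genes with the smallest p (up to 15 in each direction) or the largest change (up to 10, mean CPM at least 1), the 4 genes of lowest p in every list, the sex genes, and up to 5 genes of the difference with the smallest adjusted p. Not every gene that the rule names is reported here. The members of the comparison and the 37 gene lists were chosen with earlier results of these data known.

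Depth ran from 4407544 to 21404819 counts per library. The tests were checked on simulated counts, drawn independently for each library with no effect of name number or rRNA share. The check therefore cannot speak to either of those. Of genes changed 1.15-fold, 38.8% were recovered in the morphine comparison and 26.9% in the difference, with 7 false calls in each. At 1.5-fold the shares were 87.9% and 81.8%. Replicate pairs were checked for duplicated libraries; the lowest chi-square per gene was 3.11 in PND14 morphine and 1.96 in 3-Tri morphine, and no library was merged. Whether pups of 1 group came from separate litters is not stated, so p-values measure the spread between these pups.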

Additional observations from a re-analysis of the deposited data

Results flagged for a closer look

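In 3 genes the change from PND14 to 3-Tri differed between morphine and saline by a test of the difference itself (edgeR's quasi-likelihood test, adjusted p under 0.05). For Serinc5 the change with morphine exceeded that with saline by 0.22 on the log2 scale (SE 0.039, adjusted p = 0.0122). For Gap43 the difference was -0.25 (SE 0.050, adjusted p = 0.0450). For CT010467.1, the rRNA gene, it was -2.82 (SE 0.535, adjusted p = 0.0276), with the 6 high libraries of PND14 morphine, and it was -0.41 (adjusted p = 0.809) without the libraries over 0.3% rRNA gene counts. Serinc5 and Gap43 were not called without number 4433 (adjusted p = 0.219 for both by the same test) or 4436 (0.0948 and 0.164). Nor were they called without the libraries over 0.3% rRNA gene counts (0.102 and 0.25). With counts summed over name number, or without number 4424, 4425 or 4431, 0 genes were called. Each group had its own name numbers, so drug and name number cannot be told apart in the test of the difference. With 12 libraries in each group no search for single outlying samples was made.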

How the results depend on the processing

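With morphine the main test called 28 genes higher and 51 lower. Counts outside 1.5 times of these were, higher and lower: 187 and 261 with DESeq2, 115 and 105 with all 48 libraries in 1 fit, 3 and 5 with counts summed over name number, 0 and 0 without the libraries against their sex label, 1 and 3 without the libraries over 0.3% rRNA gene counts, 3 and 9 without those under 10000000 counts, and 0 and 1 with the rRNA gene as a covariate. One direction was outside for no filter (13 higher), labelled sex (16 higher), Xist as a covariate (14 higher), GC and length correction (91 lower) and name number as a random effect (33 lower). Leaving out 1 name number at a time gave 0 to 137 higher and 0 to 426 lower. The replicate block gave 0 and 1, and with GC and length correction 0 and 1; same-numbered pups share only a number (correlations of deviations -0.29 to 0.21, 0 of 12 best with their own), so these are not a paired analysis.

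The difference test called 1 positive and 2 negative genes. It called 41 and 57 with DESeq2, 13 and 22 with GC and length correction, 2 and 6 with labelled sex, 0 and 0 without the libraries against their sex label and with counts summed over name number, 6 negative with other size factors and with no filter, 1 negative with Xist, 0 negative with the replicate block and with name number as a random effect, and 2 positive without the shallow pair. Leaving out 1 name number gave 0 to 12 and 0 to 32, with 0 and 0 when 4424, 4425, 4431, 4433 or 4436 was left out. With saline DESeq2 called 1 gene higher against 0. The cause of each change was not tested.

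Of 1840 values of named genes, 18 changed sign. With the rRNA gene as a covariate these were Gphn 0.31, Cdk8 0.28, Lars2 0.21, Filip1l 0.15, Cmss1 0.19, Jarid2 0.35, Zc3h7a 0.22, CT010467.1 0.015, Gm19951 0.16, D130009I18Rik 0.19, Gm23935 0.20, mt-Nd1 0.074 and Oprm1 -0.041. Without the libraries over 0.3% mt-Nd1 was 0.028 and Oprm1 -0.00683. Leaving out 1 name number gave -0.0024 to 0.052 for Oprm1 and -0.12 to 0.029 for Penk, and without the libraries against their sex label Doc2g was -0.015. Another 590 values lost the call and 69 gained it. PND14 morphine held the 4 shallowest libraries of the comparison, which are also among its 6 high-rRNA libraries. The part of depth was not tested.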

Other observations

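Other gene lists gave few or no calls in 3-Tri morphine minus PND14 morphine, and their counts at an unadjusted p under 0.05 are given here as values. Over all genes tested, 7.23% were higher and 8.15% lower at that threshold, and 0.147% and 0.268% were called. Markers of the olfactory bulb had 5 higher and 1 lower of 12 (median log2 fold change 0.20; Doc2g 0.56, Ms4a15 0.75, Th, tyrosine hydroxylase of its dopamine neurons, 0.29, and Tpbg -0.17), and a median of -0.0010 without the libraries against their sex label. Meningeal and collagen genes had 1 called lower, Col6a1 (-0.18, adjusted p = 0.0463 by edgeR's quasi-likelihood test), 6 lower in all and a median of -0.080. Col6a1 was called in 3 of 20 other settings, and not without PND14 morphine replicate 4 (-0.16, adjusted p = 0.0595). Col1a1 was -1.28, with a PND14 morphine median of 54.6 CPM and single libraries at 343 (replicate 2) and 536 (replicate 10). Cortex and hippocampus genes had 2 higher and 6 lower of 22 (median -0.040; Neurod6 -0.14), striatal genes 0 and 4 of 20 (-0.025; Foxp2 -0.18), thalamic genes 0 and 4 of 14 (-0.084), hypothalamic genes 0 and 0 of 13 (0.046), and hindbrain and cerebellar genes 0 and 0 of 10 (-0.10).

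Of the other cell type lists, astrocyte genes had 3 higher and 0 lower of 20 (median 0.050), microglial genes 4 and 0 of 20 (0.045), with Cx3cr1 at 0.11 and P2ry12 at 0.14, blood vessel genes 0 and 0 of 20 (0.028), erythroid genes 1 and 0 of 7 (0.056), choroid plexus genes 3 and 0 of 16 (0.057), ependymal genes 1 and 0 of 12 (0.0012) and mature neuron genes 5 and 3 of 25 (0.038). Cell cycle genes had 0 and 3 of 22 (-0.077).

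Glucocorticoid receptors and targets had 4 higher and 0 lower of 21 (median 0.057), among them Nr3c1, the receptor itself, at 0.10 (adjusted p = 0.123). Immediate early genes had 0 and 3 of 30 (-0.012; Nr4a3 -0.17), clock genes 4 and 2 of 21 (0.0060), thyroid hormone genes 1 and 1 of 11 (-0.034), imprinted genes 4 and 6 of 24 (-0.033; Nnat -0.17, Dlk1 0.31), and axon guidance genes 6 and 5 of 46 (-0.011). Cholesterol synthesis genes had 1 and 4 of 24 (-0.029), glutamate receptors 2 and 1 of 24 (0.0014), endoplasmic reticulum stress genes 0 and 2 of 22 (-0.035), heat shock genes 0 and 2 of 15 (-0.028), hypoxia genes 0 and 1 of 14 (-0.0090), interferon genes 0 and 0 of 14 (-0.011) and the 6 sex genes 0 and 0 (0.039). Other than Col6a1, 0 genes of these lists were called in the comparison of all 24 libraries. Without PND14 morphine replicate 4, Ephb1 of the axon guidance list, an ephrin receptor, was called (0.14, adjusted p = 0.0482).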
